A study of Rattus norvegicus with 2 samples.

Results

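The 10 genes described here, Bcl2, Bcl2l1, Mcl1, Bax, Bak1, Bid, Bad, Bbc3, Bcl2l11 and Bnip3, are members or close relatives of the Bcl-2 family. They were chosen by name, with earlier results of these data known. Their probes were found as gene probes whose RefSeq transcript belongs to one of them in the rat gene table. All 10 had a probe well above background on both arrays, out of 9026 named genes measured in all. The samples were RMT-1 cells, clone E4 of a rat mammary tumour line, which all came from 1 clone. One group received a negative control siRNA and the other an siRNA against Pla2g4c, by transient transfection according to the series design, and each group was measured on 1 single-colour array, called the control array and the targeted array here. Dose and time of transfection are not given in the sources used here. Pla2g4c encodes a cytosolic phospholipase A2, and the series title names apoptosis after its repression as the subject, so that the balance of pro- and anti-apoptotic family members is a question the design raises.

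Proteins of the Bcl-2 family decide whether the outer mitochondrial membrane stays closed. Bcl-2, Bcl-xL (the product of Bcl2l1) and Mcl-1 hold the membrane closed, the effectors Bax and Bak open it so that cytochrome c is released, and the BH3-only proteins Bid, Bad, Puma (Bbc3) and Bim (Bcl2l11) either activate the effectors or occupy the protective members. Bnip3 carries a BH3-like stretch and is best known as a hypoxia-induced receptor for mitophagy, the removal of mitochondria by autophagy. Much of this family is controlled after transcription, by cleavage of Bid, phosphorylation of Bad and rapid turnover of Mcl-1, none of which an expression array measures.

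The promoters of the 5 members furthest from the control array are shown, since these carry the differences described below. Promoters were found for 8 of the 10 members in the RefSeq table of build GRCr8, and each line gives the 250 bases before the annotated start, 5′ to 3′ on the gene's strand. Capitals mark 1 motif per gene, searched on both strands: the TATA box TATAAA in Bcl2, the GC box GGGCGG in Bak1, Bid and Mcl1, and the hypoxia-inducible factor core, ACGTG or GCGTG, in Bnip3.
Bcl2 (chr13:23366901-23367150, minus strand): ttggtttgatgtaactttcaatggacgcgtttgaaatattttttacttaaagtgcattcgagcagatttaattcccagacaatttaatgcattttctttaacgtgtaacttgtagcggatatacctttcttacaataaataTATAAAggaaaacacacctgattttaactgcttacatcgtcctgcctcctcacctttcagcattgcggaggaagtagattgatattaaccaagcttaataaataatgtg
Bak1 (chr20:5110975-5111224, minus strand): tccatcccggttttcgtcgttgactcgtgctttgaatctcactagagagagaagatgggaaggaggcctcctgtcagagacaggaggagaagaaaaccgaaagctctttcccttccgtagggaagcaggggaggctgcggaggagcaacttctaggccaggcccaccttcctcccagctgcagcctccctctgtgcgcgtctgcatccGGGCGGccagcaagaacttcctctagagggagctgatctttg
Bid (chr4:155808320-155808569, minus strand): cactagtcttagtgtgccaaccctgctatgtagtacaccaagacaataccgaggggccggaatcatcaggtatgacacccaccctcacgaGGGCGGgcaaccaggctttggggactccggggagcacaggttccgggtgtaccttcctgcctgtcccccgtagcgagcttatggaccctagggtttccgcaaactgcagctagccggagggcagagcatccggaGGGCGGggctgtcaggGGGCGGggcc
Mcl1 (chr2:185907918-185908167, plus strand): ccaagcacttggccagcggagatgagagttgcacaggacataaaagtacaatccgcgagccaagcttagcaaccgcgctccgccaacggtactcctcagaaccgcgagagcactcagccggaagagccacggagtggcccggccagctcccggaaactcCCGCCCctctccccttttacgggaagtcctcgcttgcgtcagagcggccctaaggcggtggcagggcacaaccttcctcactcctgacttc
Bnip3 (chr1:203154963-203155212, minus strand): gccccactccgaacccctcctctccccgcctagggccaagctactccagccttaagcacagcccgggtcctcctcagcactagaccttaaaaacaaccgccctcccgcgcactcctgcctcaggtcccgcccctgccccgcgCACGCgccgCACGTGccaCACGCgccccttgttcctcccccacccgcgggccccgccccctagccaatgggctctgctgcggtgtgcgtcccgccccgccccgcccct

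The windows of the members with lower and higher signal do not share one composition. The Bcl2 window held 33.6% G and C, below all but 4.19% of 33465 promoter windows of this length, and the Bnip3 window held 72.4%, above 94.3% of them. Bak1, Mcl1 and Bid lay between, at 57.6%, 62% and 62.8%, against a median of 51.2%. Bnip3 had 4 matches to the hypoxia-inducible factor core, of which 2 overlap as the palindrome 99 to 94 bases before the start, and 36.7% of all windows hold at least 1. The Bcl2 window also held 1, left in lower case, 150 to 146 bases before the start. Among members not shown, Bcl2l11 had 4 matches and some Bcl2l1 windows had 1. Bid had 3 GC boxes, and Bak1 and Mcl1 had 1 each, a motif present in 30.5% of windows. Bnip3 also held this motif, with 6 matches, left in lower case, of which the 3 nearest the start form a run where neighbours share a base, and none overlaps the capitals. The TATA box letters in Bcl2 begin 109 bases before the start and occur in 12.9% of windows. These matches describe letters in the windows searched and say nothing about binding in these cells.

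RNA quantity on both arrays was given by the processed signal of each spot, divided by the array's 75th percentile of gene spots and put on the log2 scale. The control array had a percentile of 852 and the targeted array of 1105, an offset of 0.38 on the log2 scale that scaling removes, so raw signals below are higher on the targeted array for an equal scaled level. A difference is the targeted array's value minus that of the control, and ± is the scanner software's own error of the 2 signals. With a single array in each group no test across samples exists, and this error leaves out the variation between cultures. Spots well above background made up 61.9% of gene spots on the control array and 63.1% on the targeted one. No probe could be named as Pla2g4c, so the targeted transcript was not analysed here. Of the cell type markers, 4 of 4 basal epithelial markers with a probe and 4 of 5 luminal ones were well above background on both arrays, with Krt18 below it. Of the leukocyte markers reported here, Cd68 was, and Ptprc, Itgam and Cd3e did not stand above it on either. Of the other types, 3 of 5 fibroblast, 1 of 3 endothelial and 0 of 2 adipocyte markers with a probe stood above background on the control array, and 4, 1 and 1 on the targeted one. The basal markers Krt5, Krt17 and Krt14 differed by -1.72 ± 0.20, -1.63 ± 0.20 and -0.97 ± 0.20, and Tp63 by -0.13 ± 0.20, within its error. The luminal markers lay on both sides of 0, with Epcam at 1.03 ± 0.20, Krt8 at 0.86 ± 0.27, Krt19 at -0.30 ± 0.21 and Cdh1 at -0.63 ± 0.20. The part of these differences in the values of the members was not tested. In bulk RNA, fewer cells of a type and less RNA per cell cannot be told apart.

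Across the 10 members, Bcl2 and Bak1 were lower by 2-fold or more and Bid was higher by 2-fold or more in the targeted array, and the other 7 differed by less. This is 3 of 10 members, where 5.96% of all 9026 genes reached 2-fold. By direction it is 2 members lower, against 3.05% of all genes, and 1 higher, against 2.91%. With spike-in scaling it was 1 lower (Bcl2), against 0.753% of all genes, and 2 higher (Bid and Bnip3), against 13.1%. The lower pair holds a protective member and an effector, so the direction did not follow the sign of the member's role. The median difference of the members was 0.05, and that of all genes -0.01, with 5 members above 0 and 5 below. The spread among members was wide, from -1.75 to 1.18. A difference larger than 2 software errors was seen for 7 members, against 29.4% of all genes. At least 1.5-fold was reached by 6 members, against 19% of all genes, and 3-fold by Bcl2 alone, against 1.66%. The members were chosen with earlier results of these data known, so these shares only describe the list.

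**Figure D1:**
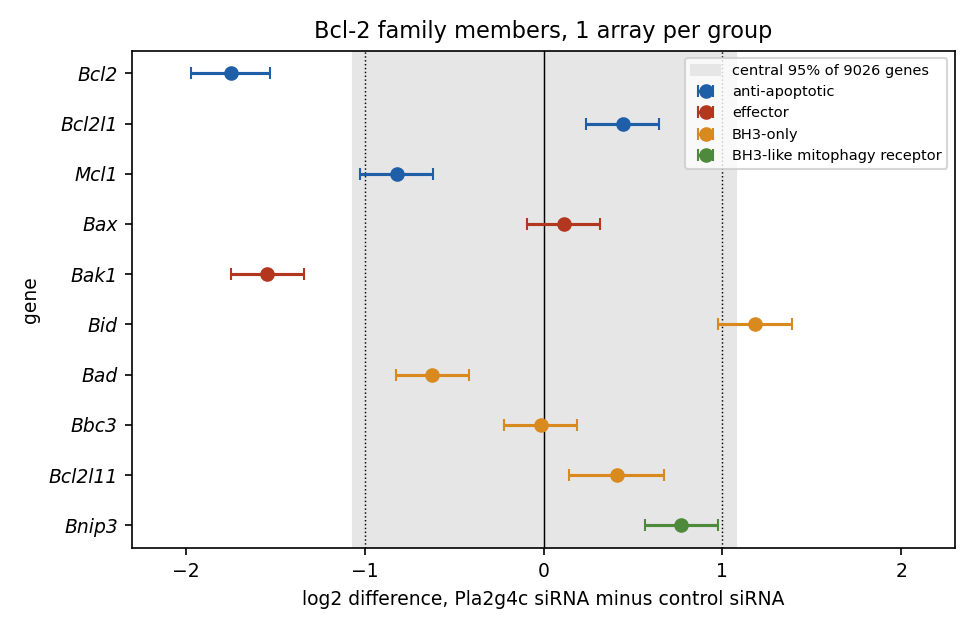
Log2 difference (Pla2g4c siRNA minus control siRNA, horizontal axis) of each member (vertical axis), coloured by role; bars are the scanner software's error, dotted lines mark 2-fold and the grey band holds the central 95% of 9026 genes. Bcl2, Bak1 and Bid lie beyond the dotted lines, and Bbc3 and Bax lie within their error of 0; under spike-in scaling all points move to the right by the same amount.

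Among the protective members the 3 genes did not move together. Bcl2, the founding member, gave processed signals of 158 and 149 in its 2 spots on the control array and of 64.6 and 54.2 on the targeted array. The spots did not overlap, and the scaled signal was 3.37-fold lower in the targeted array (-1.75 ± 0.22). Only 0.499% of all genes had a lower difference. The Bcl2 signals lay well below the 75th percentile on both arrays, and with the normexp background correction its difference was -1.18.

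Mcl1, a short-lived protector, gave signals of 1073 and 1023 on the control array and of 800 and 740 on the targeted array. Its spots did not overlap either, and the scaled difference was -0.82 ± 0.20, or 1.77-fold lower. This is larger than 2 errors and short of 2-fold, and 5.03% of all genes lay lower.

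Bcl2l1, which encodes Bcl-xL and the shorter splice form Bcl-xS, was the protective member on the other side of 0. It was represented by 4 probes made to 3 transcripts. The 2 probes to the transcript NM_001033670 differed by 0.47 ± 0.20 (signals 6524 and 11687) and 0.51 ± 0.20 (means 8102 and 14919). The probe to NM_031535, a dim spot of 90.3 and 149.7, differed by 0.35 ± 0.21. All 3 measured probes were thus higher in the targeted array by similar amounts, with a gene mean of 0.44 ± 0.21 or 1.36-fold. The fourth probe, to NM_001033672, had spots between 2.71 and 9.79 on both arrays and was not well above background. Probe signals cannot be read as the share of each splice form, since each probe has its own brightness. Bcl2l1 was counted as protective as a whole, with its forms not told apart.

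The 2 effectors, which form the pore, differed from each other. Bak1 gave signals of 2879 and 3079 on the control array and 1333 and 1314 on the targeted array. These spots did not overlap, and the difference was -1.55 ± 0.20, or 2.92-fold lower, with 0.753% of genes lower still. Bax was printed in 10 spots, where the other members had 1 or 2 per probe. Its signals on the control array ran from 1663 through a median of 1780 to 1871, and on the targeted array from 2343 through 2504 to 2551. After scaling the spots of the 2 arrays overlapped and the difference was 0.11 ± 0.20. On the log2 scale the 10 Bax spots had an SD of 0.06 on the control array and 0.04 on the targeted array, so that spot noise was smaller than the software error. Over 729 measured probes with 10 spots the median SD was 0.06 on each array.

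Of the BH3-only members, Bid stood highest. Bid is cut by caspase-8 downstream of death receptors and links them to the mitochondria. It gave 243 and 248 on the control array and 745 and 704 on the targeted array, and no spot overlapped. The difference was 1.18 ± 0.20, or 2.27-fold higher, above 97.9% of all genes, and it was 0.96 with normexp, just under 2-fold.

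Bad, which binds Bcl-2 and Bcl-xL when it is not phosphorylated, gave 2881 and 3043 on the control array and 2486 and 2500 on the targeted array. Its spots did not overlap and its difference was -0.62 ± 0.20. Under spike-in scaling this shrank to -0.07.

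Bbc3, the p53 target Puma, gave 3678 and 3872 on the control array and 4635 and 5069 on the targeted array. Once scaled, its spots overlapped and its difference was -0.01 ± 0.20, near the middle of all genes, and the sign turned in 5 of 9 processing alternatives, with a highest value of 0.53 under spike-in scaling. Bcl2l11, the FOXO target Bim, gave dim spots, with 33.6 and 27.5 on the control array and 55.2 and 49.8 on the targeted array. Its difference was 0.41 ± 0.26, within 2 errors of 0, and -0.02 with normexp. The level of Bim RNA was therefore poorly resolved between these arrays.

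Bnip3 gave 4853 and 4869 on the control array and 10649 and 10857 on the targeted array, without overlap. The difference was 0.77 ± 0.20, or 1.70-fold higher, and 94.8% of genes lay lower. Of the 10 measured member probes with at least 2 spots, 8 had spots that did not overlap between the arrays after scaling, the exceptions being Bax and Bbc3. This was so for 77.5% of 9866 such probes in all.

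**Figure D2:**
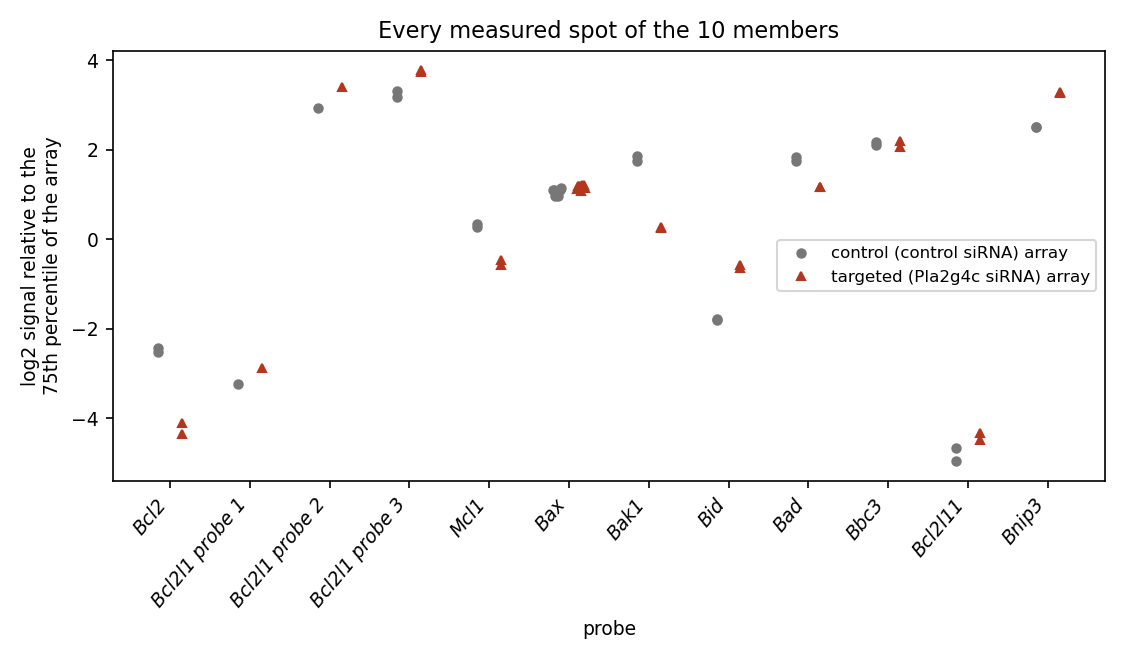
Every spot of the 12 measured member probes (horizontal axis) as log2 signal relative to the array's 75th percentile (vertical axis), circles for the control array and triangles for the targeted array. Triangles lie below the circles for Bcl2, Mcl1, Bak1 and Bad, above them for the 3 Bcl2l1 probes, Bid, Bcl2l11 and Bnip3, and overlap them for Bax and Bbc3; heights of different probes are not comparable.

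**Figure D3:**
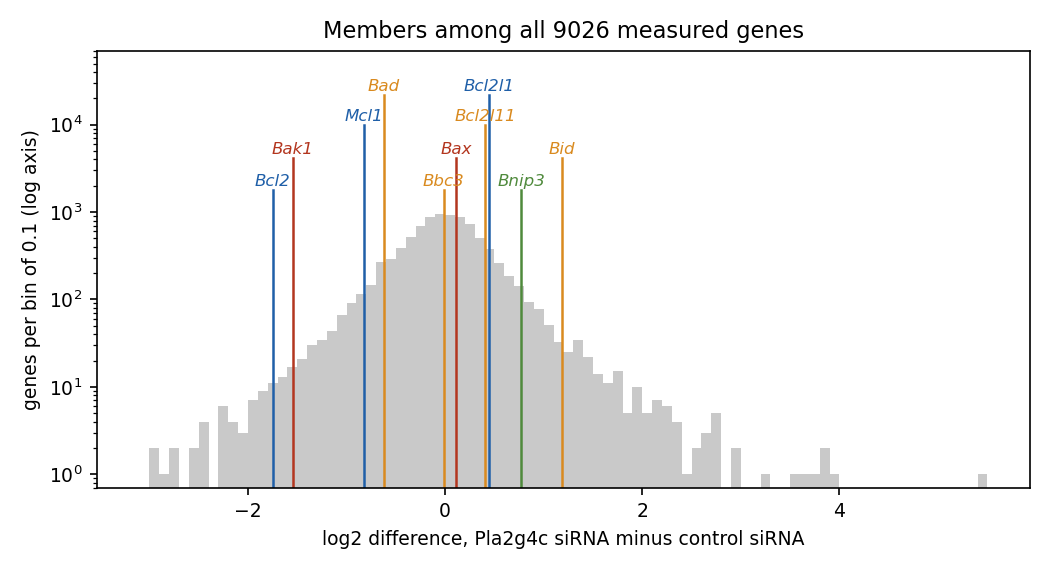
Histogram of the log2 differences of all 9026 measured genes in bins of 0.1 (logarithmic vertical axis), with a line at each member's difference, coloured by role. Bcl2 and Bak1 stand in the lower tail and Bid in the upper one, while Bbc3 and Bax fall near the centre.

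The pro- and anti-apoptotic members were next set against each other within each array. Probes differ in brightness, so the ratio of a pro- to an anti-apoptotic signal on 1 array has no meaning as a ratio of RNA amounts, and only its change between the arrays was read. This change does not depend on any constant by which an array is multiplied, and is the same with 75th percentile, median and spike-in scaling. The mean log2 level of the 7 pro-apoptotic members minus that of the 3 protective ones came to 0.79 in the control array and to 1.54 in the targeted array. The balance thus differed by 0.75 ± 0.15 towards the pro-apoptotic side. How it splits between the sides depends on the scaling. The protective mean differed by -0.71 and the pro-apoptotic mean by 0.04 with 75th percentile scaling, and by -0.16 and 0.59 with spike-in scaling.

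The sign of the change varied with the protective partner and with the pro-apoptotic member. Against Bcl2 all 7 ratios were higher in the targeted array, by 0.21 (Bak1, within its error of 0.30) to 2.93 (Bid). With normexp 6 of 7 were higher, from -0.28 for Bak1 to 2.14 for Bid. The Bax to Bcl2 ratio, often used as an index of this balance, was 3.64-fold higher (1.86 ± 0.30), and 2.41-fold higher with normexp (1.27). With percentile scaling nearly all of the 1.86 came from the dim Bcl2 probe (-1.75), since Bax differed by 0.11 ± 0.20, within its error. This split depends on the scaling, while the 1.86 is the same with spike-in scaling. There Bcl2 differed by -1.20 and Bax by 0.66, beyond its error of 0.20. Against Mcl1 6 of 7 were higher, with Bid to Mcl1 at 2.004 ± 0.29 and Bak1 to Mcl1 at -0.72 ± 0.29. Against Bcl2l1 only 2 of 7 were higher, Bid by 0.74 and Bnip3 by 0.33, and Bak1 to Bcl2l1 was 3.96-fold lower (-1.99 ± 0.29). Over all 21 pairs, which share genes and are not independent, 15 were higher and 6 lower. These counts largely follow from the partner's own difference. Of all genes, 0.499% lay below Bcl2, 5.03% below Mcl1 and 86.5% below Bcl2l1. Almost any gene would thus have a higher ratio to Bcl2, and few a higher ratio to Bcl2l1.

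**Figure D4:**
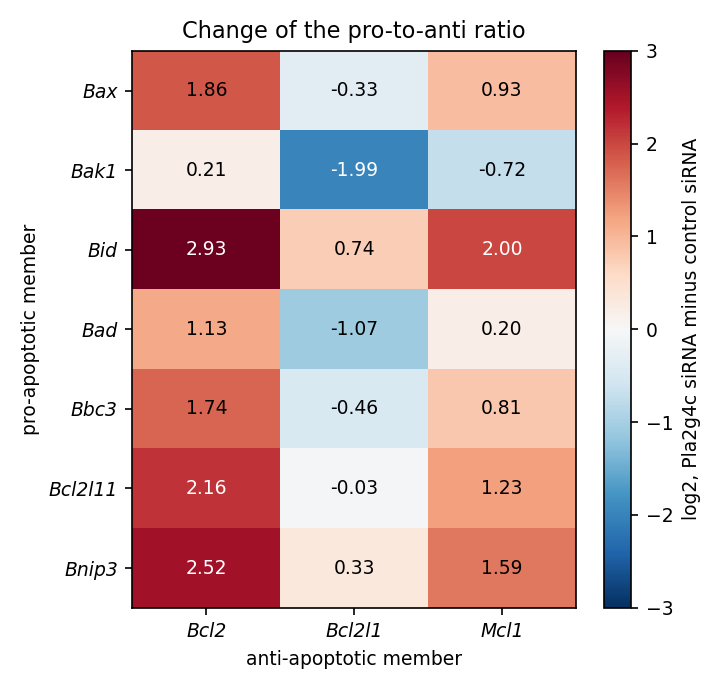
Change between the arrays of the log2 ratio of each pro-apoptotic member (rows) to each protective member (columns), coloured from blue (lower in the targeted array) to red (higher). The Bcl2 column is red in all 7 rows, from 0.21 (Bak1, which is -0.28 with normexp) to 2.93, and the Bcl2l1 column is blue in 5 of 7 rows. Bcl2 had the lowest difference of all members, which fixes the red of its column.

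The size of this change moved with the definition of the balance. Leaving out Bcl2 lowered the change to 0.23 ± 0.17, and leaving out Bcl2l1 raised it to 1.33 ± 0.17. With the effectors Bax and Bak1 alone on the pro-apoptotic side it was -0.01 ± 0.19, the effector mean having differed by -0.72 and the protective mean by -0.71. With the 4 BH3-only members alone it was 0.95 ± 0.16. Without Bak1 it was 1.02 and without Bid 0.56, and adding 10 further measured family genes brought it to 0.38 ± 0.12. With normexp the change was 0.47. That setting adds an offset of 50 to every signal, near the targeted-array signals of Bcl2 (64.6 and 54.2) and Bcl2l11 (55.2 and 49.8). The part of this offset in the lower value was not tested. Medians over members within each array gave 0.19 in place of 0.75. The pro-apoptotic median was Bad on the control array and Bax on the targeted array, so 0.19 sets different probes against each other. It is therefore not a change of the same ratio between the arrays. The medians of the members' differences gave 0.93, an alternative chosen after seeing the data.

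The rest of the family differed little. Of 4 other protective genes 3 were measured, Bcl2l2 (Bcl-w) at 0.21 ± 0.21, Bcl2l12 at 0.12 ± 0.20 and Bcl2l10 at -0.29 ± 0.40. Of 11 other pro-apoptotic and related genes 7 were measured, and 0 reached 2-fold in either direction. The BH3-only gene Pmaip1 (Noxa) was highest at 0.55 ± 0.24 and Bmf lowest at -0.34 ± 0.33. Bcl2l15 and Bik stood above background on the targeted array only, with bounds of 1.31-fold and 1.15-fold that carry no error. On the log2 scale these are 0.39 and 0.20, within the error of 0.40 of the similarly dim Bcl2l10. A difference of these 2 genes was thus not resolved. Bnip3l, the closest relative of Bnip3 and also a mitophagy receptor, differed by 0.02 ± 0.20, where Bnip3 itself differed by 0.77.

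Upstream of the members, the genes of the death receptor arm that leads to Bid had a median of -0.19 over 8 measured of 9 listed, with 0 at 2-fold. Casp8, the protease that cuts Bid, was highest at 0.52 ± 0.20, and the kinase gene Ripk1 lowest at -0.74 ± 0.21. Of the kinases, phosphatase subunits and 14-3-3 proteins that act on Bad, 17 of 19 were measured, with a median of 0.06. Ywhah, a 14-3-3 protein of the kind that holds phosphorylated Bad in the cytosol, was 2.26-fold higher (1.18 ± 0.20), the only one of these at 2-fold. This is 5.88% of the list, near the 5.96% of all genes. Genes that control turnover of Mcl-1 and Bim had a median of 0.19 over 8 of 11, from the ERK1 gene Mapk3 (-0.59 ± 0.20) to the ubiquitin ligase Marchf5 (0.42 ± 0.20).

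Among 11 measured of 13 transcription factors known to act on members, with a median of -0.18, Foxo3 was lowest at -0.99 ± 0.23. Foxo3 acts on Bcl2l11 and Bbc3, which differed by 0.41 and -0.01. Hif1a, which acts on Bnip3, was highest at 0.57 ± 0.20. Of 13 measured of 14 other hypoxia targets, the carbonic anhydrase Car9 was 2.54-fold higher (1.34 ± 0.20), 0 were 2-fold lower, and the median was -0.05. Car9 alone is 7.69% of this list, beside 5.96% of all genes. In the mitophagy list 7 of 10 were measured, with a median of 0.02, from Pink1 (-0.53 ± 0.20) to Sqstm1 (0.46 ± 0.20). Fundc1, a further mitophagy receptor, was chosen after its values were seen. It stood above background on the control array only. Its measured signal was 3.01-fold lower in the targeted array, where it was not well above background, and no error was given.

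Of the p53 targets other than Bax and Bbc3, 9 of 10 were measured with a median of 0.03. Perp was 2.004-fold lower (-1.003 ± 0.20) and 0 were 2-fold higher. Perp alone is 11.1% of this short list, beside 5.96% of all genes. Partners at the outer mitochondrial membrane had a median of 0.15 over 17 of 20, from the co-chaperone Bag3 (-0.54 ± 0.20) to the calcium channel Itpr1 (0.73 ± 0.21). Downstream of the pore, the apoptosome and released factors had a median of 0.17 over 11 of 11, from Htra2 (-0.34 ± 0.20) to Apaf1 (0.89 ± 0.21). Over all these lists 109 genes were measured, of which 2 reached 2-fold upwards and 1 downwards, or 2.75%, beside 5.96% of all genes.

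The directions above are relative to the bulk of genes. With 75th percentile scaling 49.0% of the 9026 genes were above 0. In the authors' deposited values 62.8% were, with a median of 0.12, and with spike-in scaling 88.7% were, with a median of 0.54. Bcl2, Mcl1, Bak1 and Bad stayed below 0 and Bcl2l1, Bax, Bid and Bnip3 above 0 in all 9 alternatives, while the sign of Bbc3 and Bcl2l11 turned in some. Bcl2 was at least 2-fold lower in 9 of 9 alternatives, Bak1 in 8 (-0.996 with spike-in scaling), and Bid at least 2-fold higher in 8. These counts include alternatives that could not change a member with 1 probe, namely flagged spots kept, brightest probe and no dim filter. Spike-in scaling brought Mcl1 to -0.27 and Bnip3 to 1.32, past 2-fold.

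**Figure D5:**
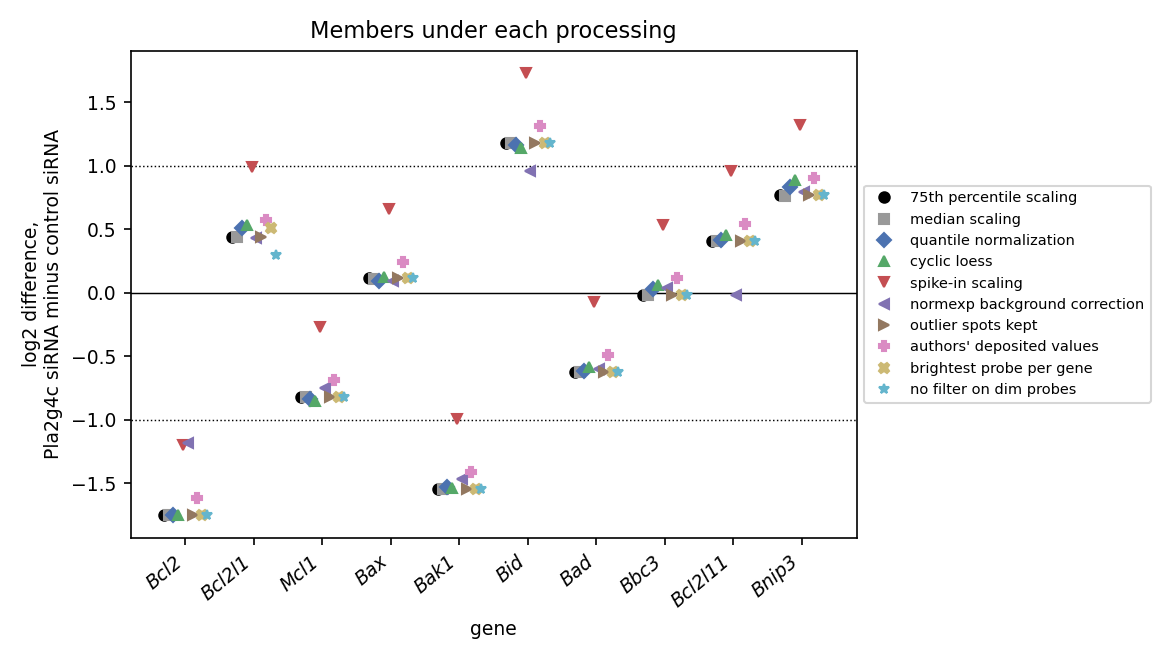
Log2 difference (Pla2g4c siRNA minus control siRNA, vertical axis) of each member (horizontal axis) under the 75th percentile scaling and 9 processing alternatives, 1 symbol each, with dotted lines at 2-fold. Spike-in scaling lifts all 10 members, and Bbc3 and Bcl2l11 cross 0 between settings; Bcl2 stays below the lower dotted line in all of them.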

How the data were processed

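Cy3-labelled RNA of RMT-1 cells was hybridised to Agilent rat arrays, 1 per group, per the labels. The deposited scanner files give a linear intensity per spot. Per the file headers the software was Agilent Feature Extraction 10.10.1.1, and the submitters' processing notes name 10.10. The deposited normalized intensity equals processed signal times 1.77 (control) and 1.50 (Pla2g4c siRNA), as computed from the values. The reason for these constants is not stated.

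Outlier spots (by flag, on any array) were dropped, log2 signals minus the array's 75th percentile averaged per probe, and probes well above background on both arrays averaged per gene. Of 30366 probes with a spot left, 18006 were named through RefSeq accessions. Of the same 30366, named or not, 16840 were well above background on both arrays. None of the 32 member spots was flagged or saturated. The software's errors of both signals were combined in quadrature, and those of means and ratios treated as independent between genes. Bounds were taken against the higher of the lowest level of any probe well above background and the dim probe's own signal. The dim signal was the higher for Fundc1, so its value is the measured difference. Bounds carry no error. Array number limits the precision. With 1 array per group no test was run.

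All members were named. One cell type marker is not reported here. Of the other lists, genes at 2-fold were named, otherwise the highest and lowest, or all where 5 or fewer were measured. No gene was named for a pattern like a member's, since 2 arrays give 1 difference. Members and lists were chosen with earlier results of these data known. Alternatives were normexp (offset 50, on the median spot signal, the mean not being a column), median, quantile, cyclic loess and spike-in scaling (7 RNAs), deposited values, brightest probe, no dim filter and flagged spots kept. Python 3.11.15, numpy 2.4.6, pandas 2.3.3, matplotlib 3.10.9, R 4.3.3 and limma 3.58.1 were used, and the steps were tested on simulated data.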

Additional observations from a re-analysis of the deposited data

How the results depend on the processing

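Of 90 member differences recomputed under 9 processing alternatives, 77 moved by less than the software error. Many of these could not move. No member spot was flagged, and only Bcl2l1 had several probes for the brightest probe or the dim filter to act on. Median scaling and the deposited values shift all members by nearly the same amount, smaller than the error. The count is therefore no measure of robustness. The other 13 were the 10 members under spike-in scaling and Bcl2 (-1.18), Bid (0.96) and Bcl2l11 (-0.02) under normexp. The balance change of 0.75 stayed between 0.47 (normexp) and 0.80 over these alternatives. A constant factor per array cancels in the balance. Median scaling, spike-in scaling and keeping flagged spots could therefore not move it, and the deposited values hardly could. Other definitions gave -0.0065 with effectors alone, which turned the sign within its error, 0.95 with BH3-only members and 0.38 with the wider family. Medians of the differences (chosen after seeing the data) gave 0.93. Medians within each array gave 0.19, but they fall on different probes in the arrays, so this is not a change of the same ratio. Without Bcl2, Bcl2l1, Bak1 or Bid the change was 0.23, 1.33, 1.02 or 0.56, in that order. The count of 3 members at 2-fold was 6 at 1.5-fold, beside 19% of all genes, and 1 at 3-fold, beside 1.66%. With normexp it was 2, both lower (Bcl2 and Bak1), where 1.71% of all genes were 2-fold lower and 1.29% higher. With spike-in scaling the 3 were Bcl2, Bid and Bnip3, where 0.753% of all genes were 2-fold lower and 13.1% higher. The cause of these shifts was not tested. No paired analysis was possible because each group holds 1 array. The dim probes of Bcl2 and Bcl2l11 had software errors of 0.22 and 0.26, above those of the other 8 members. The variation between cultures was not measured.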
